A study of Mus musculus with 10 samples.

Results

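The 10 genes described here are Wnt ligands, R-spondins and targets of Wnt signalling that mark or respond to the cortical hem, the signalling centre at the medial edge of the embryonic cortex. They were chosen by gene symbol: the 5 ligand genes Wnt3a, Wnt2b, Wnt5a, Wnt7b and Wnt8b, the 3 R-spondin genes Rspo1, Rspo2 and Rspo3, and the 2 target genes Axin2 and Lef1. The genes and the lists used below were chosen with earlier results of these data known. Their counts beside all tested genes are thus descriptions and no independent test. All 10 were among the 16338 genes of the RNA table, and all 10 were among the 14324 genes tested. The study asked where the co-repressor Rcor2 lies on chromatin and which transcripts differ after its deletion in the cortical midline of C57/Bl6 mouse embryos on embryonic day 14.5. For RNA-seq, 2 control libraries were of genotype Rcor2f/f and 2 conditional knockout (cKO) libraries of genotype Rcor2f/f/EMX1-iCRE, so that both groups carried floxed Rcor2 alleles and the cKO also carried the recombinase. Emx1 is active in progenitors of the dorsal telencephalon, and cells of the meninges, the vessels and the ventrally born interneurons arise outside that lineage. For chromatin immunoprecipitation with sequencing (ChIP-seq), wild-type midline gave 2 libraries each with an Rcor2 antibody, with rabbit IgG and of total input. Whether any library pooled embryos is not given in the labels, so p-values measure only the spread between these libraries.

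Wnt ligands are secreted lipid-modified proteins that bind Frizzled receptors and the co-receptors Lrp5 and Lrp6, which stops the destruction complex of Axin, Apc and Gsk3 from degrading beta-catenin. Beta-catenin then enters the nucleus and acts with TCF/LEF factors on target genes, among them Axin2, which feeds back on the pathway. R-spondins bind Lgr receptors and clear the ubiquitin ligases Znrf3 and Rnf43 from the membrane, so that Frizzled receptors stay at the surface. In the medial cortex, Wnt signals of the hem are known for the growth and patterning of the hippocampus, which depends on Wnt3a and on Lef1.

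The libraries held 27674987 to 30270598 reads, recovered from the deposited normalized counts. Rcor2 itself stood at 7901 and 7257 normalized counts in control libraries 1 and 2 and at 6363 and 6840.2 in cKO libraries 1 and 2 (limma adjusted p 0.0541), and the labels do not say which exons were floxed. Control library 1 and cKO library 1 had high Ddx3y, a Y-linked gene (2936 and 3211 normalized counts), and control library 2 and cKO library 2 high Xist, the female-specific X-inactivation RNA (20334 and 21449), so each genotype had 1 library of each kind. Of 8 markers of the hippocampal primordium and medial cortex, all were measured, with Emx2 between 1902 and 2345, and the hem and roof plate factor Lmx1a was between 285 and 384 normalized counts in the 4 libraries. Of the choroid plexus markers, Ttr was at 5.87 to 19.5 normalized counts and Kcne2 at 0 in every library. The 9 meningeal and fibroblast markers stood apart in 1 library: their summed normalized counts were 1561 and 1409 in the controls, 8715 in cKO library 1 and 2008 in cKO library 2. Below, each of the 10 genes has its value in every library, and the 4 that rose also their change without cKO library 1.

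Of the 10 genes, 4 rose in the cKO: Wnt8b, Rspo1, Axin2 and Lef1. None of the 10 fell at a limma adjusted p under 0.05, also at an unadjusted p under 0.05 and by edgeR, each with a count of 0. Over all tested genes, limma called 14.5%, of which 6.16% of tested genes were higher and 8.29% lower. The median log2 change of the 10 genes was 0.37, beside -0.01 over all tested genes, and 9 of the 10 values were above 0, beside 47.3% of tested genes. At an unadjusted p under 0.05, 8 of the 10 were higher, beside 13.0% of tested genes. Both cKO libraries lay above both controls for 7 of the 10, which was so for 27.7% of tested genes. For none were both cKO libraries below both controls, which held for 33.3% of tested genes, and the groups overlapped for Wnt5a, Wnt7b and Rspo3. Within the libraries of number 1 and within those of number 2, the change was above 0 in both pairs for 8 genes, beside 32.7% of tested genes. With 2 libraries against 2, an exact permutation test of a single gene cannot go below p = 0.333, so the calls rest on limma's spread pooled over genes.

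**Figure D1:**
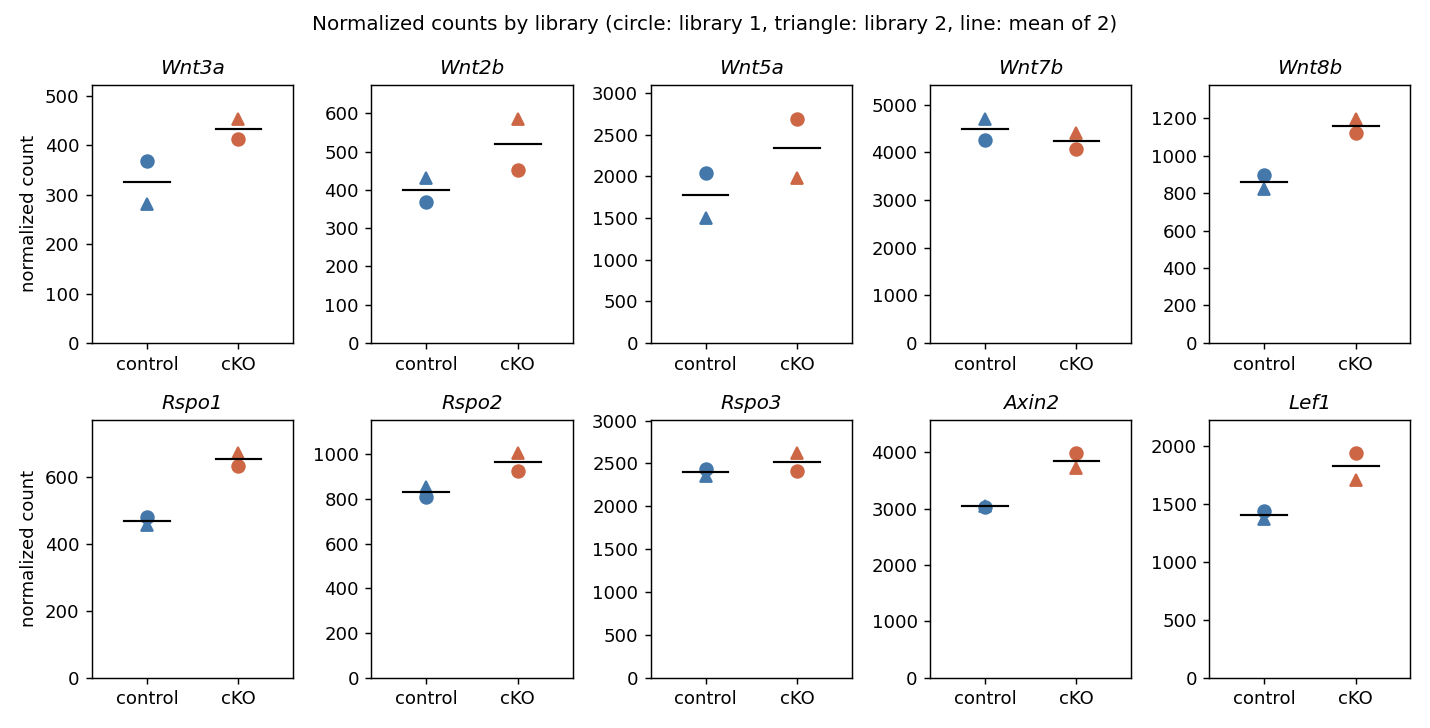
Normalized count (vertical axes, from 0) of each of the 10 genes in the 2 control and 2 cKO libraries; circles are library 1, triangles library 2, lines the mean of 2. Both cKO points lie above both control points in 7 panels, and the groups overlap for Wnt5a, Wnt7b and Rspo3.

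Wnt8b, a ligand of the hem and the hippocampal primordium next to it, was the ligand with the clearest difference. It stood at 899 and 824 normalized counts in control libraries 1 and 2 and at 1123 and 1199 in cKO libraries 1 and 2, so that the lowest cKO value exceeded the highest control value. The rise was 34.8% of the control mean (log2 0.43, SE 0.072, limma adjusted p 0.00901), from 861 ± 53.3 to 1161 ± 53.7 (SD, n = 2 each). The log2 change was 0.32 between the libraries of number 1 and 0.54 between those of number 2, and 0.48 without cKO library 1, the library with high meningeal markers. The meningeal sum of cKO library 2, at 2008 normalized counts, was also above both controls, and the part of meningeal tissue was not tested.

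Wnt3a, the hem ligand that hippocampal growth depends on, stood at 369 and 282 normalized counts in control libraries 1 and 2 and at 412 and 454 in cKO libraries 1 and 2. The groups did not overlap, but the controls differed from each other by more than the cKO libraries did. The log2 change of 0.42 (SE 0.13, 95% interval 0.11 to 0.73) did not pass (limma adjusted p 0.0727), and it was 0.16 between the libraries of number 1 and 0.68 between those of number 2. Control library 2 set much of it: without that library the log2 change was 0.23, and without control library 1 it was 0.62. Counting error alone is 6.19% at the 261 reads of control library 2.

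Wnt2b, another canonical ligand of the hem, stood at 369 and 430.3 normalized counts in control libraries 1 and 2 and at 452 and 586 in cKO libraries 1 and 2. Both cKO values were above both controls, with cKO library 2 the highest. The log2 change was 0.37 (SE 0.13, 95% interval 0.06 to 0.68); at a limma adjusted p of 0.105 it was not called, and with the library number as a replicate block it was (limma adjusted p 0.0348). Without cKO library 1 it passed (log2 0.56, limma adjusted p 0.0103), and without cKO library 2 the log2 change was 0.18.

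Wnt5a, a ligand best known for signalling that does not run through beta-catenin, stood at 2043 and 1503 normalized counts in control libraries 1 and 2 and at 2695 and 1986 in cKO libraries 1 and 2. Library 1 of each genotype was the higher, so the groups overlapped, and the pooled change (log2 0.40, SE 0.16, 95% interval 0.03 to 0.77) did not pass (limma adjusted p 0.138). Taken within the libraries of each number, the log2 change was 0.40 and 0.40, and with the number as a replicate block Wnt5a was called (limma adjusted p 0.00388). Of the 10 genes, Wnt5a had the widest 95% interval, and its value was 0.62 without control library 1 and 0.18 without control library 2. Without cKO library 1 it was 0.18, and without cKO library 2 it was 0.62 with a limma adjusted p of 0.0037.

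Wnt7b, which cortical neurons and progenitors express widely rather than the hem alone, had a negative log2 change, unlike Wnt2b, Wnt3a, Wnt5a and Wnt8b. Its 95% interval did not fix the sign. It stood at 4253 and 4705 normalized counts in control libraries 1 and 2 and at 4067 and 4411 in cKO libraries 1 and 2, with overlapping groups. The log2 change was -0.08 (SE 0.063, limma adjusted p 0.447), and its 95% interval of -0.22 to 0.07 lay below the values of 0.37 to 0.43 found for Wnt2b, Wnt3a, Wnt5a and Wnt8b. The 95% intervals of Wnt2b (0.06 to 0.68) and Wnt5a (0.03 to 0.77) overlapped that of Wnt7b, and whether Wnt7b differed from those ligands was not tested. Of 6 tested Wnt ligands outside the 10 genes, 5 had a positive log2 change, and Wnt7a had -0.10 (limma adjusted p 0.317).

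Among the R-spondins, Rspo1 rose, and its change was the highest of the 10 genes. It stood at 481 and 458 normalized counts in control libraries 1 and 2 and at 634 and 671 in cKO libraries 1 and 2, with a wide gap between the groups and little spread within them. The rise was 39.1% of the control mean (log2 0.47, SE 0.080, limma adjusted p 0.00941), and the log2 change was 0.40 between the libraries of number 1, 0.55 between those of number 2 and 0.52 without cKO library 1.

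Rspo2 stood at 807 and 855 normalized counts in control libraries 1 and 2 and at 925 and 1005 in cKO libraries 1 and 2. The groups did not overlap, but the change was smaller than for Rspo1 (log2 0.21, SE 0.072, 95% interval 0.05 to 0.38) and did not pass (limma adjusted p 0.0842). Rspo3 had 2431 and 2357 in control libraries and 2408 and 2617 in cKO libraries, and cKO library 1 lay between the controls. Its log2 change was 0.07 (SE 0.056, limma adjusted p 0.458), with a 95% interval of -0.06 to 0.20. A rise of the size seen for Rspo1 lay outside the interval of Rspo3; the difference between R-spondins was not tested.

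Both targets rose. Axin2, which encodes a scaffold of the destruction complex and is a widely used readout of Wnt signalling, stood at 3032 and 3049.6 normalized counts in control libraries 1 and 2 and at 3983 and 3724 in cKO libraries 1 and 2. The controls were nearly equal and both cKO libraries were well above them, a rise of 26.7% (log2 0.34, SE 0.050, limma adjusted p 0.00706). Lef1, a TCF/LEF factor of the hippocampal primordium that is itself a target, had 1438 and 1369.7 in control libraries and 1940.5 and 1713 in cKO libraries. Its rise was 30.1% (log2 0.38, SE 0.070, limma adjusted p 0.0125). For both targets cKO library 1 was the higher, the reverse of Wnt8b and Rspo1. Between the libraries of number 1 and of number 2 the log2 change was 0.39 and 0.29 for Axin2 and 0.43 and 0.32 for Lef1, and without cKO library 1 it was 0.29 for each, with limma adjusted p of 0.00542 and 0.0177.

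The 4 rises passed in the authors' deposited table as well, with log2 changes of 0.44 for Wnt8b (adjusted p 0.00111), 0.49 for Rspo1 (adjusted p 0.00519), 0.35 for Axin2 (adjusted p 2.79e-05) and 0.39 for Lef1 (adjusted p 0.000946). Among genes with an adjusted p in the authors' deposited table, 5.93% were higher. With edgeR these 4 and no other of the 10 passed, beside 5.69% of tested genes higher. Each of the 4 lost its limma call when either control library was left out, with adjusted p-values of 0.0525 to 0.101, so 0 of 10 passed, although 6 of 10 were higher at an unadjusted p under 0.05 in either setting, beside 8.97% of tested genes without control library 1 and 9.49% without control library 2. Over all tested genes, 1.2% passed without control library 1 and 0.977% without control library 2, since the spread then came from the 2 cKO libraries alone. Without cKO library 1, 5 of the 10 passed, all higher, beside 9.66% of tested genes in either direction and 3.83% higher, and without cKO library 2 it was 5 of the 10, all higher, beside 24.1% in either direction and 10.7% higher.

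**Figure D2:**
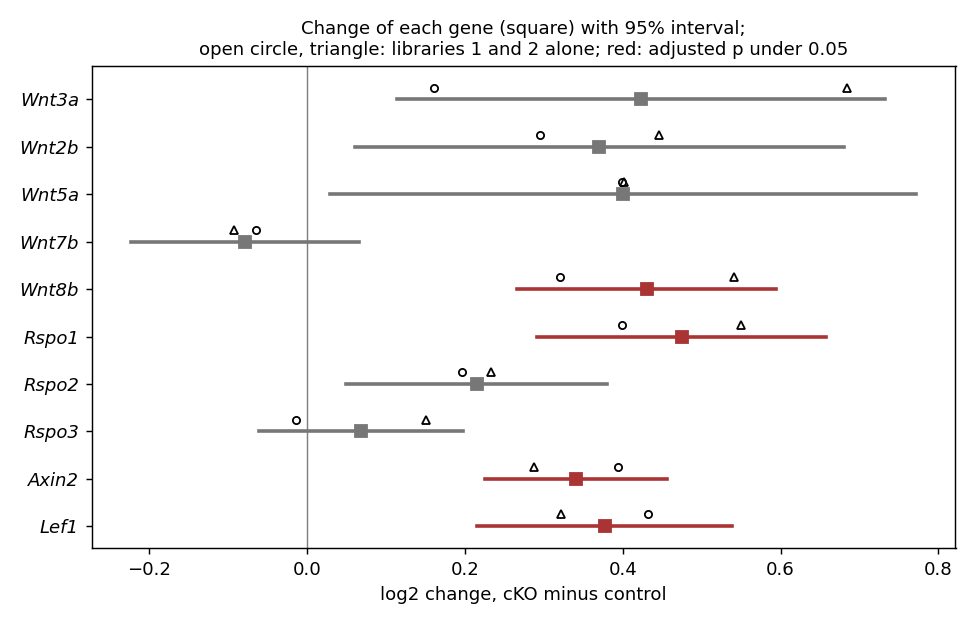
Log2 change, cKO minus control (horizontal axis), of each gene with its 95% interval from limma; open circles and triangles give the change between the libraries of number 1 and of number 2, and red marks an adjusted p under 0.05. The intervals of Wnt8b, Rspo1, Axin2 and Lef1 begin above 0.2, and those of Wnt7b and Rspo3 include 0.

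Sequences upstream of the start site are shown for the 4 genes that rose, to let their composition and TCF/LEF letters be compared. RefSeq (GRCm38.p6, the assembly of mm10) gave 9 windows for 6 of the 10 genes: Wnt3a, Wnt2b, Wnt8b, Rspo1, Axin2 and Lef1. Each line is the 250 bases before the annotated start, 5′ to 3′ on the gene's strand, at chr19:44493222-44493471 (Wnt8b, + strand), chr4:124986180-124986429 (Rspo1, + strand), chr11:108920099-108920348 (Axin2, + strand) and chr3:131110047-131110296 (Lef1, first of 4 windows, + strand). Capitals mark CTTTG, the core of the TCF/LEF motif, on either strand.
Wnt8b: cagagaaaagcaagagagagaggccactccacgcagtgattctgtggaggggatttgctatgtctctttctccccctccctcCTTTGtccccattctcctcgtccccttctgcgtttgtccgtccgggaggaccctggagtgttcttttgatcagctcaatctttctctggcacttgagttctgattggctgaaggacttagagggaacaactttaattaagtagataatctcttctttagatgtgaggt
Rspo1: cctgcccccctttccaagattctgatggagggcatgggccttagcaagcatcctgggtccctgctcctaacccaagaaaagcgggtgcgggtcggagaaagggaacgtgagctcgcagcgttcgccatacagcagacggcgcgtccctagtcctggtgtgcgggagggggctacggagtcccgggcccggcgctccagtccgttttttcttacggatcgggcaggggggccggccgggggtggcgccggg
Axin2: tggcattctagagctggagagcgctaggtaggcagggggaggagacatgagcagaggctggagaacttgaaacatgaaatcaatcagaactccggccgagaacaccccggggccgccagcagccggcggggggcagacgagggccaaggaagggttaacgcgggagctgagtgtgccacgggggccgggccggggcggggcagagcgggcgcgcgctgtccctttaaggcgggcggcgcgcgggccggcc
Lef1: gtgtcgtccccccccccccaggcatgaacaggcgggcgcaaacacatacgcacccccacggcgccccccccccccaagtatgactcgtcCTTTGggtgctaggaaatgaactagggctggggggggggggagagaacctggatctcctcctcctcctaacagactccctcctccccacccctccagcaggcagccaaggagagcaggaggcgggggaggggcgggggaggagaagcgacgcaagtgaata
The core CTTTG was found 1 time in the Wnt8b window, 168 bases before the start, and 1 time in the first Lef1 window, 161 bases before the start. The other Lef1 windows, not shown, held the core 2, 1 and 3 times. The core was in neither the Rspo1 nor the Axin2 window, and 48.6% of 32851 windows in the RefSeq table held it. A longer form, CTTTG followed by A or T at each of the next 2 bases, was in 14.8% of all windows. Of the 9 windows, only the last of Lef1 held that form. Of the 4 windows shown, that of Wnt8b was the poorest in G and C at 48.4%, beside 66.4% for Lef1, 66.8% for Rspo1, 69.2% for Axin2 and a median of 52.4% over all windows; Wnt2b and Wnt3a had 80.8% and 87.6%. No Rcor2 peak overlapped any of the 9 windows, and the nearest summit to the 4 starts shown was 5074 bases away, at Axin2.

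The other genes of the pathway were read from role lists: 77 of the 89 listed genes were tested, 13 rose, 5 fell and 59 were not called (median log2 change 0.08). Over all tested genes, limma called 6.16% higher and 8.29% lower. Receptors and inhibitors held 8 of the 13 that rose, and cytoplasmic transducers and nuclear factors 4 of the 5 that fell. Of 6 other Wnt ligands tested, 1 rose, Wnt10a, at 88.7 and 82.2 normalized counts in control libraries 1 and 2 and 144 and 126 in cKO libraries 1 and 2 (log2 0.65, SE 0.16, limma adjusted p 0.031). Of 5 genes of secretion, Wls, the carrier that takes Wnt proteins to the cell surface, rose (log2 0.26, SE 0.063, limma adjusted p 0.029), and Porcn, the enzyme that attaches their lipid, fell by 0.32 on the log2 scale (limma adjusted p 0.0494).

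Of 16 receptors and co-receptors, 4 rose, 0 fell at an adjusted or an unadjusted p under 0.05 by limma or by edgeR at an adjusted p, and 12 did not pass (median 0.14). The Frizzled receptor gene Fzd9 stood at 1877 and 1833 normalized counts in control libraries 1 and 2 and at 2636 and 2416 in cKO libraries 1 and 2 (log2 0.44, SE 0.058, limma adjusted p 0.00566), and Fzd7 and Fzd2 rose by 0.28 and 0.27. None of the 5 tested R-spondin receptors and ligases passed with limma or edgeR (1 was higher at an unadjusted p under 0.05 in limma). Of these, the ligase gene Znrf3 differed by 0.25 on the log2 scale (limma adjusted p 0.0589) and the receptor gene Lgr4 by -0.04 (limma adjusted p 0.834). Of 12 secreted and membrane inhibitors, 4 rose and 8 did not pass, and all 12 values were above 0 (median 0.31). Those that rose included Dkk3 (log2 0.31, SE 0.045, limma adjusted p 0.00697), which was listed by its Dickkopf family name, and its action on Wnt signalling was not tested. Dkk1 and Dkk2 did not pass (limma adjusted p 0.32 and 0.815). The membrane inhibitor gene Apcdd1 (log2 0.31, SE 0.054, limma adjusted p 0.00988) and Frzb, a secreted Frizzled-related protein (log2 0.61, SE 0.11, limma adjusted p 0.0113), rose as well.

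Inside the cell, 2 of 14 cytoplasmic transducers fell and 12 did not pass (median -0.06). These were Apc, the scaffold of the destruction complex, at 22795 and 24234 normalized counts in control libraries 1 and 2 and 18005 and 18472 in cKO libraries 1 and 2 (log2 -0.37, SE 0.049, limma adjusted p 0.00594), and its neuronal relative Apc2 (log2 -0.35, SE 0.047, limma adjusted p 0.00576). Of 12 nuclear factors, the co-repressor gene Tle4 fell by 0.25 on the log2 scale and Ctnnbip1, an inhibitor of beta-catenin, by 0.21, and the TCF factor gene Tcf7l1 rose by 0.52 (limma adjusted p 0.0484). Of 7 other known targets, 2 rose: Nkd1, a feedback inhibitor (log2 0.28, SE 0.058, limma adjusted p 0.0169), and the receptor gene Tnfrsf19 (log2 0.47, SE 0.096, limma adjusted p 0.0171). Wls, Porcn and Tcf7l1 did not pass with edgeR, with adjusted p-values of 0.0624, 0.08 and 0.0551. Without cKO library 1, 4 of the genes named as called lost the call: Wnt10a, Wls, Porcn and Tcf7l1, with limma adjusted p-values of 0.117, 0.0902, 0.0947 and 0.191. The log2 change of Tcf7l1 was then 0.33 and that of Tnfrsf19 0.29, which still passed (limma adjusted p 0.00411). With the library number as a replicate block, Porcn did not pass (limma adjusted p 0.0505) and Znrf3 did (limma adjusted p 0.0484). Over the 77 genes, the median log2 change was 0.03 without cKO library 1 and 0.16 without cKO library 2. Without control library 1 or control library 2 it was 0.08 in either setting. Over all tested genes, the median in these settings was -0.02 to -0.01.

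**Figure D3:**
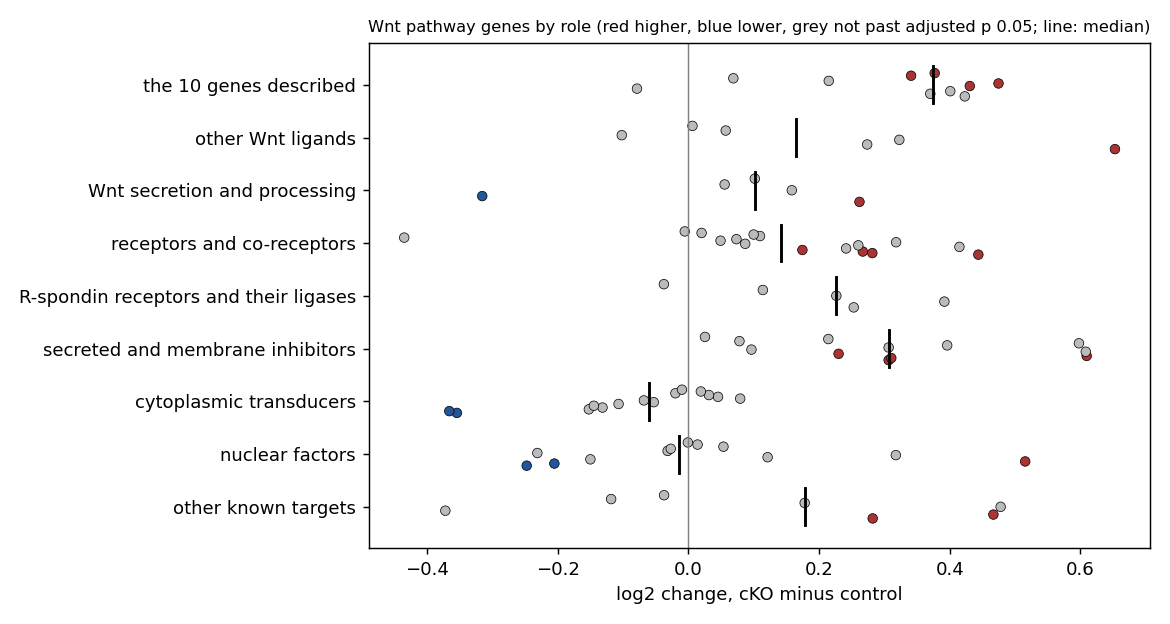
Log2 change, cKO minus control (horizontal axis), of the 10 genes and of the 77 other tested pathway genes by role; each point is a gene, red rose, blue fell, grey did not pass, and the black line is the median. The median is highest for the 10 genes (0.37) and for the inhibitors (0.31), and below 0 for cytoplasmic transducers and nuclear factors.

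Markers of the cells in the dissected tissue differed between the groups as well. For the counts below, limma called 6.16% of all tested genes higher and 8.29% lower. In bulk tissue, more cells of a type and more RNA per cell cannot be told apart. Of 7 hem and roof plate markers other than the 10 genes, 2 rose, Bmp7 (log2 0.77) and Id3 (log2 0.24), and Lmx1a was 0.34 higher on the log2 scale without passing (limma adjusted p 0.0573). With edgeR it was Lmx1a that passed (adjusted p 0.0477) and Id3 that did not (adjusted p 0.0752). Bmp6 and Msx2 had log2 changes of 0.85 and 0.80, Bmp4 of -0.96 at 19.5 and 17.3 against 10.3 and 7.83 normalized counts, and Msx1 of -0.05, none of them called. The 7 summed normalized counts were 1742 and 1801 in control libraries and 2364 and 2257 in cKO libraries. Of 8 medial cortex markers, 5 rose, with sums of 32204 and 32709 in control libraries and 36887 and 35714 in cKO libraries. Lhx2, not called, made up 13496 and 13798 of these against 15766 and 14672. Zbtb20 had a log2 change of -0.09, and the other 7 values were positive. Of 8 neuronal markers, 7 fell, with sums of 158923 and 160659 in control libraries and 113106 and 123197 in cKO libraries. Of 8 radial glia markers, 4 rose, with sums of 93439 and 91667 against 101706 and 100344. Vim, not called, made up 38111 and 37538 of these against 42331 and 42207. Slc1a3 had a log2 change of -0.06, and the other 7 values were positive. Of 6 ventral and interneuron markers tested, 3 fell, Lhx6, Gad1 and Gad2, and all 6 were lower at an unadjusted p under 0.05 (median -0.65, sums 1860 and 1999 against 1184 and 1228). Of 6 markers of Cajal-Retzius cells, the early neurons that arise in part from the hem, Ndnf fell (log2 -0.79, limma adjusted p 0.00778) and 5 did not pass. Among those 5, the log2 change was 0.44 for Lhx1, 0.17 for Trp73, 0.06 for Calb2, -0.02 for Lhx5 and -0.21 for Reln. The median of the 6 was 0.02. The sums were 50583 and 49315 against 41389 and 46125, of which Reln made up 47305 and 46009 against 38055 and 42718. Without cKO library 1, the median log2 change was 0.37 for hem, 0.22 for medial cortex, 0.40 for choroid plexus and 0.15 for radial glia markers. It was 0.41 for meningeal, 0.09 for Cajal-Retzius and -0.02 for diencephalic markers. For neuronal, ventral, endothelial and microglia and blood markers it was -0.37, -0.66, -0.16 and -0.09, beside -0.01 over all tested genes. The part of these shifts in the changes of the 10 genes was not tested.

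Of 9 meningeal markers, 3 rose, Col1a1 from 355 and 258 to 2442 and 611 normalized counts. Without cKO library 1, the median log2 change of the 9 was 0.41, beside 1.48 with all libraries. The log2 change was then 0.48 for Wnt8b, 0.52 for Rspo1 and 0.29 for each of Axin2 and Lef1. The meningeal sum of cKO library 2, at 2008, was also above both controls. The part of meningeal tissue in the changes of the 10 genes was not tested. None of 8 endothelial markers passed with limma or edgeR (2 were lower at an unadjusted p under 0.05 in limma), and their sums were 4234 and 4370 in control libraries and 4167 and 3968 in cKO libraries. Of 5 choroid plexus markers tested, Otx2 and Folr1 rose, and the sums were 338 and 357 against 499 and 490.3, of which Otx2 made up 191 and 214 against 297.2 and 296.5. Ttr had a log2 change of -1.07 (unadjusted p 0.0332, limma adjusted p 0.128). Of 4 diencephalic markers tested, the thalamic factor Lhx9 rose, from 2393 and 2092 to 3476 and 3024 normalized counts, and Foxp2, Barhl2 and Irx3 did not pass, with log2 changes of 0.03, -0.05 and -0.05.

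**Figure D4:**
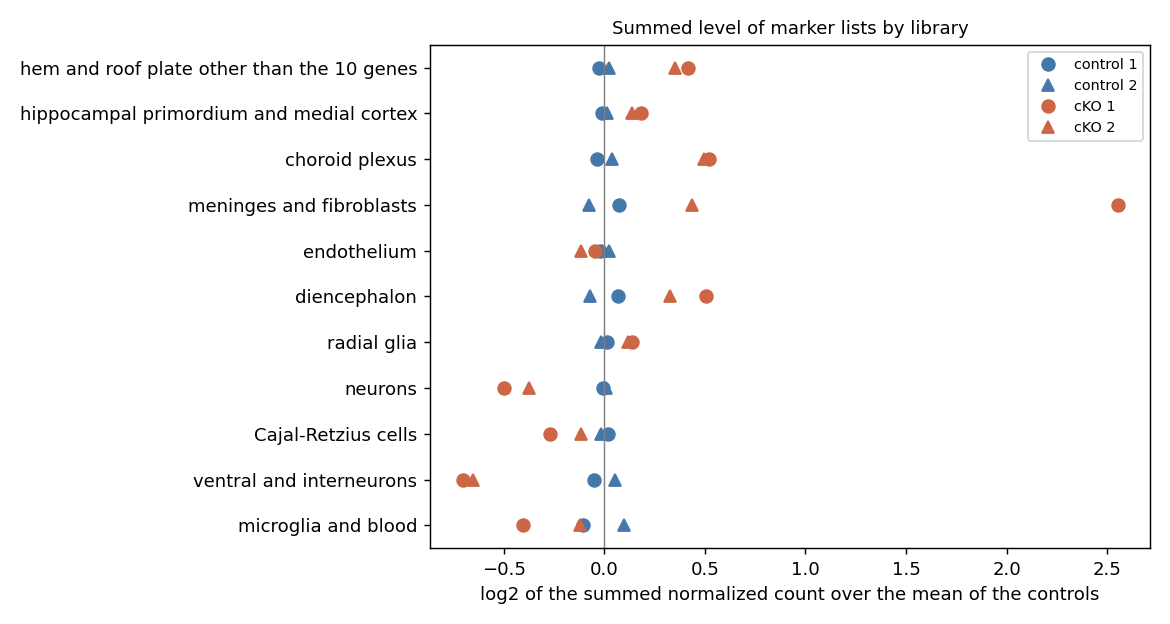
Log2 of the summed normalized count of each marker list in each library over the mean of the 2 controls (horizontal axis); blue is control, orange cKO, circles library 1, triangles library 2. The meningeal sum of cKO library 1 (8715 normalized counts) lies far to the right of the other 3 libraries. In both cKO libraries the hem, medial cortex, choroid, meningeal, diencephalic and radial glia sums lie above both controls. The neuronal, ventral, Cajal-Retzius, endothelial and microglia and blood sums lie below both controls.

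On chromatin, the authors named 9 of the 6995 Rcor2 peaks for 4 of the 10 genes: 4 for Wnt7b, 3 for Axin2, 1 for Rspo2 and 1 for Lef1. Of all tested genes, 20.9% were named for at least 1 peak and 1.39% for at least 4, as Wnt7b was. Wnt3a, Wnt2b, Wnt5a, Wnt8b, Rspo1 and Rspo3 were named for none. Of the 4 genes that rose, Axin2 and Lef1 had a peak and Wnt8b and Rspo1 had none, while Wnt7b and Rspo2 had peaks and did not pass in the RNA. The nearest summit outside the genes without a peak was 9292 bases from Wnt5a, in a peak with no gene name, and 664876 bases from Rspo3. For Wnt8b it was 26754 bases and for Rspo1 37080 bases from the gene.

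The strongest of the 9 peaks lay outside Wnt7b, at chr15:85613031-85613576 (mm10), 31403 bases beyond the upper coordinate of the gene's span (chr15:85535437-85581821). Its height was 29 and 57 in the Rcor2 libraries, 5 and 3 in the IgG libraries and 19 and 16 in the input libraries, so both Rcor2 heights exceeded all 4 others. The authors' fold enrichment over IgG was 9.08, with 98.9% of the 6995 peaks lower, and the ratio of Rcor2 to input heights was 2.42. A weaker peak next to it at chr15:85612376-85612527 had Rcor2 heights of 11 and 18 against input heights of 14 and 23. Within the gene, chr15:85559348-85559616 had Rcor2 heights of 15 and 23 and input heights of 17 and 17, and chr15:85562183-85562627 had 17 and 31 against 16 and 19. In these 3 peaks the Rcor2 and input heights overlapped.

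At Axin2 (span chr11:108917828-108950783), a peak 15607 bases before the lower coordinate of the span, at chr11:108901962-108902475, had Rcor2 heights of 21 and 25, IgG heights of 7 and 3 and input heights of 14 and 17. Both Rcor2 heights were above both inputs, with a ratio of 1.47. The 2 peaks within the gene, at chr11:108925347-108925544 and chr11:108936206-108936372, had Rcor2 heights of 12 and 18, and 10 and 17, against input heights of 21 and 17, and 10 and 19, ratios of 0.795 and 0.933. The Lef1 peak, at chr3:131137133-131137282 inside the gene, had Rcor2 heights of 10 and 17, IgG heights of 3 and 2 and input heights of 14 and 12, a ratio of 1.04 to input. The Rspo2 peak, at chr15:43170812-43170961 and classed by the authors as promoter, lay 729 bases inside the upper end of the gene's span; its Rcor2 heights were 9 and 17, its IgG heights 6 and 2 and its input heights 13 and 11, a ratio of 1.08. It had the lowest fold enrichment but 1 of the 9, at 3.5.

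Over the 9 peaks, the median ratio of Rcor2 to IgG heights was 4.08, beside 3.89 over all peaks, and this contrast had chosen the peaks. With the libraries of number 1 alone the ratio at the 9 peaks was 2.69, and with those of number 2 alone it was 7.0. The median ratio of Rcor2 to input, which the peak names do not give as the control, was 1.08, beside 1.33 over all peaks, and 0.886 and 1.4 with the libraries of number 1 and of number 2 alone. Both Rcor2 heights exceeded both input heights in 2 of the 9 peaks, beside 40.3% of all peaks. Whether the heights were scaled for depth is not given, and 2 libraries against 2 allow no exact permutation p below 0.333, so no test of the heights was made. Of the 77 other tested pathway genes, 26 (33.8%) were named for a peak, beside 20.9% of all tested genes. Fzd9 and Tcf7l1, which rose, had 7 each, and genes not called in the RNA had peaks too, such as Tcf7l2 and Znrf3 with 3 each.

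**Figure D5:**
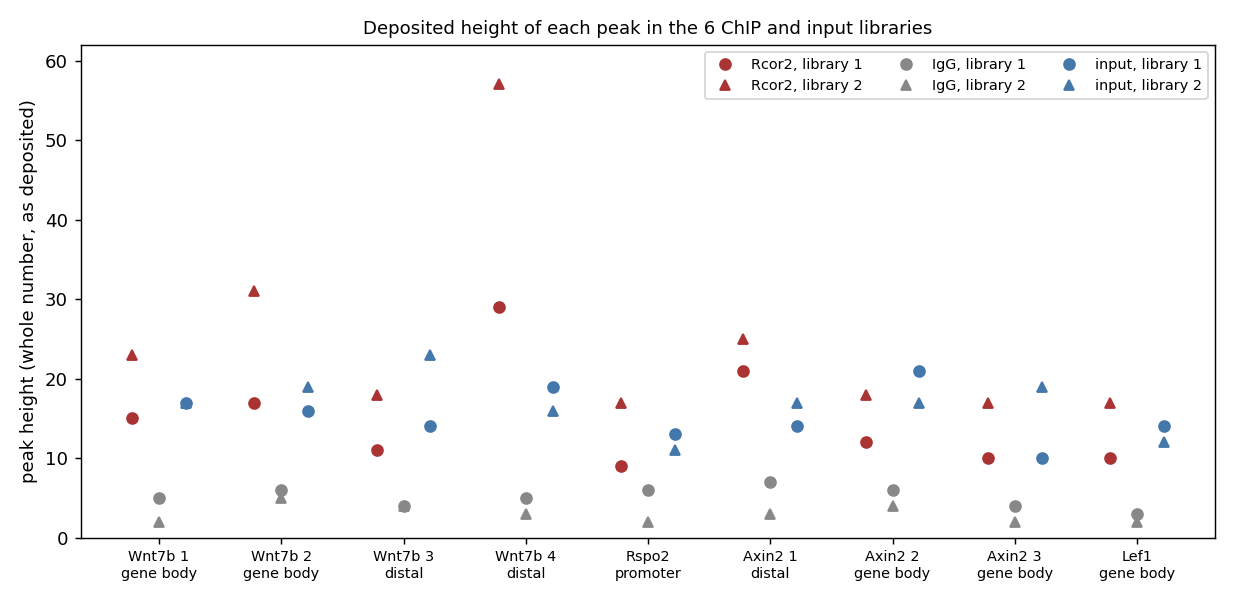
Deposited height (vertical axis, from 0) of each of the 9 peaks in the 2 Rcor2, 2 IgG and 2 input libraries; circles are library 1, triangles library 2. Rcor2 points exceed both input points at the fourth Wnt7b peak (29 and 57 against 19 and 16) and the first Axin2 peak, and IgG points are the lowest at every peak.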

How the data were processed

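RNA and ChIP libraries of cortical midline were grouped by their titles. HISAT2 2.1.0, Trim Galore and mm10 stand in the submitters' processing notes, without a role. The tool that counted reads per gene and the settings used to call peaks are, in the sources used here, not given. The deposited RNA signal is, per the file headers, a normalized count for each gene in each library, and 100% were whole multiples of 1 step per library (tolerance 0.001), which gave the recovered reads. The deposited table also holds the authors' log2 fold changes, a test score and p-values. Per the file headers, the deposited peak table holds heights (coverage signal), a fold enrichment over IgG and −log10 p and q, the headers of the last 2 being spoiled. Peaks were called on Rcor2 against IgG as 1 list, per the peak names.

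Limma-trend (limma 3.58.1, R 4.3.3) was fitted to log2(normalized count + 1) over the 14324 genes whose mean reached 10 normalized counts (2014 left out), two-sided, with Benjamini-Hochberg adjustment over all of them and a threshold of 0.05; log2 changes are on that scale and understate changes of low genes. Residual degrees of freedom were 2 and prior 6.21. No gene set was tested. Alternatives used edgeR 4.0.16 and DESeq2 1.42.0 on recovered reads, other scalings, filters and pseudocounts, the authors' test and each library left out. The fits were also run on simulated counts whose changes were larger than those of the 10 genes, so that run says nothing about changes of this size. Ratios of heights had 0.5 added to both means. Counting error falls from 6.19% at 261 reads (Wnt3a) to 1.49% at 4507 (Wnt7b). Gene lengths were not used, so levels are not compared between genes. The members and lists were chosen with earlier results of these data known. All 10 genes are named; from each role list, up to 3 called genes by smallest adjusted p are named, or its 2 most abundant. Figures used matplotlib 3.10.9.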

Additional observations from a re-analysis of the deposited data

How the results depend on the processing

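Over 14 alternatives for each of the 10 genes, 128 of 140 values kept their direction and their side of the threshold, 8 lost the call, 4 gained it and none changed sign. The 8 losses were Wnt8b, Rspo1, Axin2 and Lef1, each without either control library. The gains were Wnt2b and Wnt5a with a replicate block, Wnt2b without cKO library 1 and Wnt5a without cKO library 2. With other pseudocounts, filters or scalings, with edgeR or DESeq2 and in the authors' test, 4 of the 10 genes were called. Leaving out 1 library at a time gave 0 to 5 of the 10 genes, 0 to 26 of the 77 pathway genes and 140 to 3453 of all genes; with a library left out, the lone one of its group is assumed to vary like the other group. The libraries share only a number in the labels. Deviations from the group means of libraries with the same number correlated (0.24, across genes, which are not independent), and number and sex-linked expression go together. With the number as a replicate block, 6 of the 10 genes were called (Wnt2b adjusted p 0.0348, Wnt5a 0.00388, limma), 18 pathway genes and 2076 genes in all.

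A fold enrichment of at least 5 left 3 peaks and 1 gene with a peak, Wnt7b; a window of 100 kb around each gene's span, whatever gene the authors named, gave 22 peaks and 8 genes. After division by each library's median height over all peaks, which sets all peaks near 1 by construction, the median ratio of Rcor2 to IgG at the 9 peaks was 0.998. Depth limits Wnt3a and Wnt2b most (261 to 599 reads).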
